A study of Caenorhabditis elegans with 6 samples.

Results

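The wide regions of HAM-1::GFP binding are the entries of the authors' combined list whose deposited interval is longer than 460 bp, the commonest width of that list. They make up 449 of 8430 entries, or 5.33% (95% Wilson interval 4.87 to 5.83%). Of the rest, 5400 entries had exactly 460 bp and 2581 were narrower. Membership was fixed by the measured width itself, so the width of the members is a description and not a finding. The width, the order and the neighbours of a region all come from 1 list, and the replicate lists describe the same experiment. No comparison between width classes was therefore treated as independent of the choice, and none was tested. Intervals given for shares and for their differences cover counting error only, since neighbouring regions are not independent.

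The libraries came from chromatin immunoprecipitation and sequencing (ChIP-seq), which recovers the DNA bound by a tagged protein with an antibody against the tag. The animals were hermaphrodites of Caenorhabditis elegans strain OP102 at the L4 larval stage, grown at 20 °C. Their genotype is unc-119 (ed3) with the transgene wgIs102, which holds ham-1 with TY1, EGFP and FLAG tags and a working unc-119 gene. All samples share this genotype, and formaldehyde was used at 2% for each of them. There is no untagged strain, and the transgene was brought in by bombardment and not outcrossed. The submitters state that the fusion protein has the ham-1 expression pattern. Whole animals were used, so all cell types are pooled. The 3 ChIP replicates each have a list of regions, of 30000, 30000 and 29621 entries, and the 3 input replicates were not analysed here. The lists hold no read counts, so sequencing depth is unknown, and nothing says that the replicates came from separate cultures, so their spread may be technical.

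HAM-1 is a winged-helix protein of C. elegans. It is known for its part in the unequal division of certain neuroblasts, in which one daughter cell lives and the other is often fated to die. A transcription factor bound at a single short site gives a narrow peak of reads. The width of a deposited region depends on the binding and on the peak caller, and a list of intervals alone does not tell these apart. The coordinates are on WormBase build WS220, for which neither a genome nor gene positions were used here, so sequences and genes are not given.

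Many wide entries were repeats of one another. The 449 entries described 331 distinct intervals: 223 were listed once, 102 were listed 2 times, 4 were listed 3 times and 2 were listed 5 times. The entries of a repeated interval had the same start and end but different places in the authors' order, which is the number in the region's name and runs from strong to weak. Repeats were far more frequent in this class than in the others. They made up 108 of 331 wide intervals, or 32.6%, against 15 of 2566 narrower intervals, or 0.585%, and 0 of 5400 intervals of 460 bp. The same held in the replicate lists, where 48 of 109, 46 of 98 and 16 of 44 intervals above the usual width of their list were repeated, mitochondrial ones included, and no interval at the usual width was. Each distinct interval is counted once from here on, at the lowest of its places, unless entries are named.

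The distinct wide intervals ran from 461 to 2561 bp, with a median of 562 bp and quartiles of 496.5 and 658 bp. They summed to 210.8 kb, which is 6.31% of the summed length of all 8297 distinct intervals. Most were only somewhat longer than usual: 90 measured 461 to 500 bp, 115 measured 501 to 600 bp and 82 measured 601 to 800 bp. Another 23 measured 801 to 1000 bp and 21 were longer than that. The share that was repeated rose along these steps, from 11.1% to 23.5%, 47.6%, 65.2% and 81.0%. Intervals listed once had a median width of 526 bp, and repeated intervals one of 671 bp.

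The longest interval of all lay on X from 16929322 to 16931882 and was 2561 bp wide. It was listed 5 times, at places 114, 2125, 2142, 2326 and 5428. The list of replicate 1 met it with 2 distinct intervals, that of replicate 2 with 2 and that of replicate 3 with 3, and the best places there were 75, 229 and 69. Its nearest neighbour was 26855 bp away, so the long interval stood by itself. The next longest, on II from 10541849 to 10544396 with 2548 bp, also had 5 entries, at places 225, 2102, 4379, 4816 and 7148. In replicate 2 a single interval of 2288 bp covered 89.8% of it. The best region there was 1166 bp wide in replicate 1 and 552 bp in replicate 3, so that the 3 libraries broke this stretch up differently.

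The other 4 of the 6 longest intervals off chromosome I were less strong. On II, the interval from 9170551 to 9172124 (1574 bp) stood at places 6049 and 8044. Its best regions in replicates 1, 2 and 3 stood at places 4792, 3941 and 4143. Also on II, the interval from 8420026 to 8421582 (1557 bp) had 1 entry at place 7580 and lay 19107 bp from its neighbour, although the replicate lists placed their best region there at 2913, 2871 and 2665. On IV, the interval from 14032973 to 14034539 (1567 bp) stood at places 934 and 4119. On V, the interval from 723887 to 725421 (1535 bp) stood at places 450 and 6692. The longest were not the strongest as a group: the 21 intervals above 1000 bp had a median place of 635, behind the 23 of 801 to 1000 bp with a median place of 212.

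**Figure D1:**
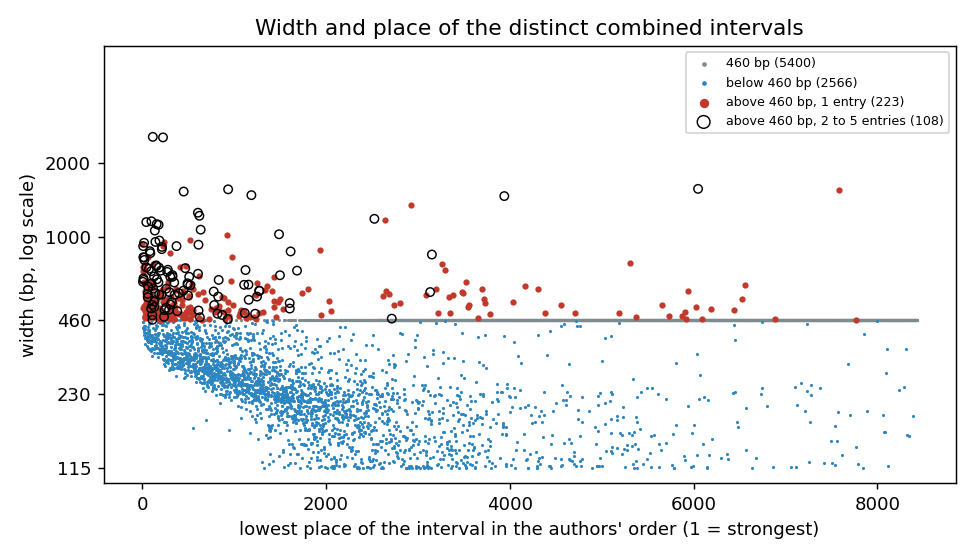
Width of each distinct combined interval in bp on a log axis against its lowest place in the authors' order, where 1 is strongest. Grey points are the 5400 intervals of 460 bp, blue points the 2566 narrower ones, red points the 223 wide intervals with 1 entry and open circles the 108 with 2 to 5 entries. Wide intervals crowd at the left, and the blue points fall from just under 460 bp towards 115 bp as the place rises.

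Wide regions stood high in the order. They took 53 of the first 100 places, 64 of the next 150, 65 of places 251 to 500 and 57 of places 501 to 1000. Their share fell from 53.0% (95% Wilson interval 43.3 to 62.5%) to 42.7%, 26.0% and 11.4% over these steps, and it was 1.15% from place 6001 on. Narrower regions filled nearly all the remaining first 1000 places, with 754 entries against 239 wide entries. Entries of 460 bp held 7 of the first 1000 places and 95.7% of places 6001 to 8430. The median place of the distinct wide intervals was 447, with 95% order-statistic limits of 354 and 517. Taking the lowest place of a repeated interval favours this class, and over all wide entries the median place was 869. The median over distinct intervals was 1583.5 for narrower intervals and 5598.5 for those of 460 bp, and over entries it was 1592 and 5598.5, so the usual width marked the weak part of the list. The deposited score had little power to rank them, as 409 of the 449 wide entries, or 91.1%, shared its highest value. Ordered by score, the difference in median place from intervals of 460 bp was -2886 in place of -5151.5. With the limit at 600 bp, wide entries took 9.8% of the first 1000 places in place of 23.9%.

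**Figure D2:**
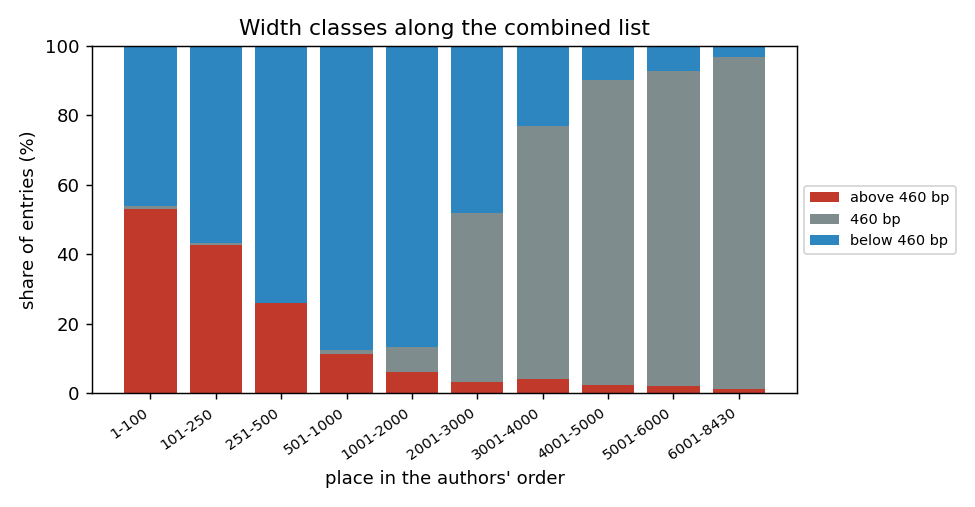
Share of entries in % of each width class in steps of the authors' order of the combined list, from the strongest places at the left. Red is above 460 bp, grey is 460 bp and blue is below 460 bp. Red falls from 53.0% in the first 100 places to 1.15% in the last step, where grey holds 95.7%.

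The limit of 460 bp cut through a run of strong regions of graded width. With entries of exactly 460 bp left out, width and place among the 985 distinct intervals of the first 1000 places had a Spearman rho of -0.57, a description across intervals of 1 list. The median width there fell from 451 bp in places 1 to 250 to 374 bp in places 251 to 500 and 309 bp in places 501 to 1000. The 51 intervals of 461 to 480 bp had a median place of 442, and the 47 intervals of 440 to 459 bp had a median place of 458. Neighbours within 1 kb were found for 60.8% of the former and 61.7% of the latter. On X lay 9 of the former, or 17.6%, and 13 of the latter, or 27.7%, so the class was not set off at its limit by a higher share on X. The members just above the limit off chromosome I were on V from 8606226 to 8606686 at place 204 and on III from 5940442 to 5940902 at place 647, each 461 bp wide. The best placed intervals of exactly 460 bp off chromosome I were both on IV, from 3050460 to 3050919 at place 173 and from 14793829 to 14794288 at place 542.

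Within the class itself width followed place only weakly. Spearman's rho across the 331 wide intervals was -0.12, and it was near 0 across the 223 listed once. Of the 6 strongest off chromosome I, 5 were longer than the upper quartile of 658 bp, and the longest of them measured 935 bp. The first of the list, on III from 3866897 to 3867831, was 935 bp wide with 1 entry. In replicates 1, 2 and 3 it was met by 1 region each, of 517, 508 and 400 bp, at places 1, 8 and 3. The interval on III from 10758900 to 10759416, at place 3, was 517 bp wide and was met by regions of 436, 462 and 404 bp, which are below the usual width in replicates 1, 2 and 3. On X, the interval from 11093723 to 11094451 at place 5 was 729 bp wide, with replicate regions of 660, 671 and 530 bp. Another on X, from 6296178 to 6296932 at place 6, was 755 bp wide, with replicate regions of 722, 663 and 566 bp. At these 4 sites replicate 3 had the shortest region. The intervals on X from 9465474 to 9466132 and from 14525375 to 14526295 were repeated, with first entries at places 7 and 9 and further entries at places 1971 and 2467.

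Most wide entries that stood late in the order belonged to a stronger one. Of the 115 wide entries after place 3000, 69 repeated the interval of an earlier entry. The other 46 were the first entries of their intervals, and 31 of these overlapped another distinct interval of the combined list. In all 31 cases the overlapping partner with the lowest place was stronger, with a median place of 517 and none later than 1474. The partner was itself wide in 26 cases and narrower than 460 bp in 5, and in 29 of the 31 it began at the same base. Just 4 of the 46 had no neighbour within 1 kb. They were the intervals of 1574 and 1557 bp on II already named, one on III from 10711266 to 10711902 at place 6563 and one on IV from 15433693 to 15434272 at place 3085, named after their values were seen. The second and later entries of repeated intervals stood far behind the first. The median first place of repeated intervals was 305 and the median last place 3566.5.

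Wide intervals had close neighbours more often than the other classes. The median gap to the nearest other distinct interval was 735 bp, against 1400.5 bp for intervals of 460 bp and 1467 bp for narrower ones. A neighbour within 1 kb was found for 207 of 331 wide intervals, or 62.5%, against 39.9% of those of 460 bp, a difference of 22.7 percentage points (95% Newcombe interval 17.2 to 27.9). Among the first 1000 places, where strength is more alike, 54.1% of wide and 31.2% of narrower intervals had such a neighbour, a difference of 22.9 points (15.7 to 30.02). A long interval reaches nearer to its neighbours by its length alone. Measured from midpoint to midpoint, 39.3% of wide intervals had a neighbour within 1 kb, against 25.02% of those of 460 bp. In the first 1000 places the midpoint shares were 26.8% for wide and 16.3% for narrower intervals, a difference of 10.5 points (4.53 to 17.1). This difference was 16.8 points (8.31 to 26.2) in places 251 to 1000 and 37.8 points (27.9 to 46.4) after place 1000. In places 1 to 250 it was 4.91 points, with an interval from -4.64 to 14.7 that holds 0, and the difference in overlap there was 1.67 points (-4.61 to 8.47). Overlap with another distinct interval was seen for 77 wide intervals, or 23.3%, against 11.2% of those of 460 bp and 10.5% of narrower ones. After place 1000 it was seen for 47.0% of wide and 12.1% of narrower intervals, so close neighbours there were often overlapping intervals. It was rare among the repeated intervals, with 3 of 108, and was found for 74 of the 223 listed once.

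**Figure D3:**
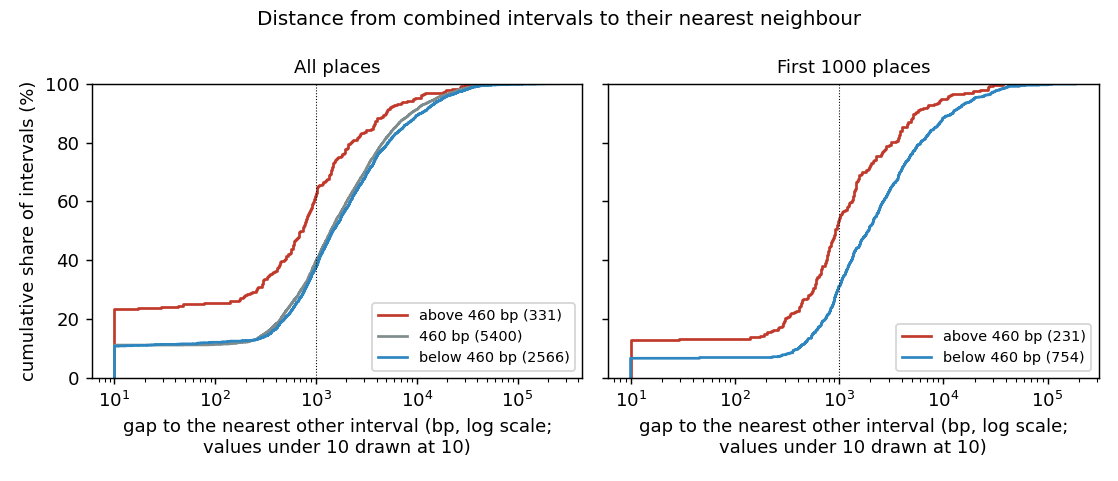
Cumulative share in % of distinct combined intervals against the edge-to-edge gap to the nearest other interval in bp on a log axis, over all places at the left and over the first 1000 places at the right. Red is above 460 bp, grey is 460 bp and blue is below 460 bp, grey is drawn at the left only, and the dotted line marks 1 kb. At that line red stands at 62.5% and 54.1%, above the other lines of its panel.

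Many wide intervals lay near another wide interval. Joined wherever the gap was at most 5 kb, they formed 237 groups, of which 174 held a single wide interval, 43 held 2 and 20 held 3 or more. In all, 157 of the 331 lay in a group with another. Groups were not counted for the other classes, so these numbers have no comparison. A neighbour of any class within 5 kb was found for 90.3% of wide, 81.6% of 460 bp and 79.2% of narrower intervals. Members of a group can also overlap, and 68 wide intervals shared an edge with another combined interval. Of the 20 groups of 3 or more, 12 lay off chromosome I, and the groups named here are from these. The largest of them, on II from 10541849 to 10559332, held 6 wide intervals with 13 entries in 17484 bp. This group began with the 5-entry interval named above. It lay in a stretch with 14 distinct combined intervals in all. A group on III from 3862919 to 3869955 held 4, among them the strongest region of the list. Other groups of 4 off chromosome I were on III from 8795517 to 8802376, on V from 723887 to 728216 and on II from 11634008 to 11636207. On V the 4 wide intervals were the only combined intervals of their stretch, and so were the 4 on II. The latter group spanned 2200 bp.

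X held more of the wide intervals than any other chromosome. It had 89 of 331, or 26.9%, followed by I with 65, III with 63, II with 44, and IV and V with 35 each. Per Mb of chromosome there were 5.02 on X, 4.57 on III, 4.32 on I, 2.88 on II, 2.00 on IV and 1.67 on V. Intervals of 460 bp stood at 66.4 per Mb on X, 68.4 on III, 57.9 on I, 52.05 on II, 45.1 on IV and 39.6 on V. X also held the most intervals of 460 bp, with 1176, and the most narrower ones, with 505. Compared with the intervals of 460 bp, of which 21.8% were on X, the share on X was 5.11 points higher (95% Newcombe interval 0.481 to 10.2). IV and V together held 21.1% of wide intervals against 29.9%, a difference of -8.78 points with an interval from -13.02 to -3.91.

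The high share on X lay in the strongest places. In places 1 to 250, 45 of 114 wide intervals were on X, or 39.5%, against 24 of 131 narrower ones, or 18.3%, a difference of 21.2 points (9.83 to 31.9). In places 251 to 1000 the shares were 21.4% of 117 and 20.9% of 623, a difference of 0.501 points with an interval from -6.78 to 9.31. After place 1000 they were 19.0% of 100 wide and 19.4% of 1812 narrower intervals. The difference between these steps was not tested. Repeated intervals were on X in 36 of 108 cases, or 33.3%, and those listed once in 53 of 223, or 23.8%. In the replicate lists, regions above the usual width of their list were on X in 32 of 100, 39 of 97 and 17 of 34 nuclear cases, or 32.0%, 40.2% and 50.0%. Regions at the usual width were on X in 19.3%, 18.6% and 19.6%. All 3 replicate lists thus had the higher share on X among their wider regions than at the usual width. Strength was not matched in this comparison. The wider regions had median places of 220, 231 and 76, and entries at the usual width had 15789.5, 15710 and 15238.

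**Figure D4:**
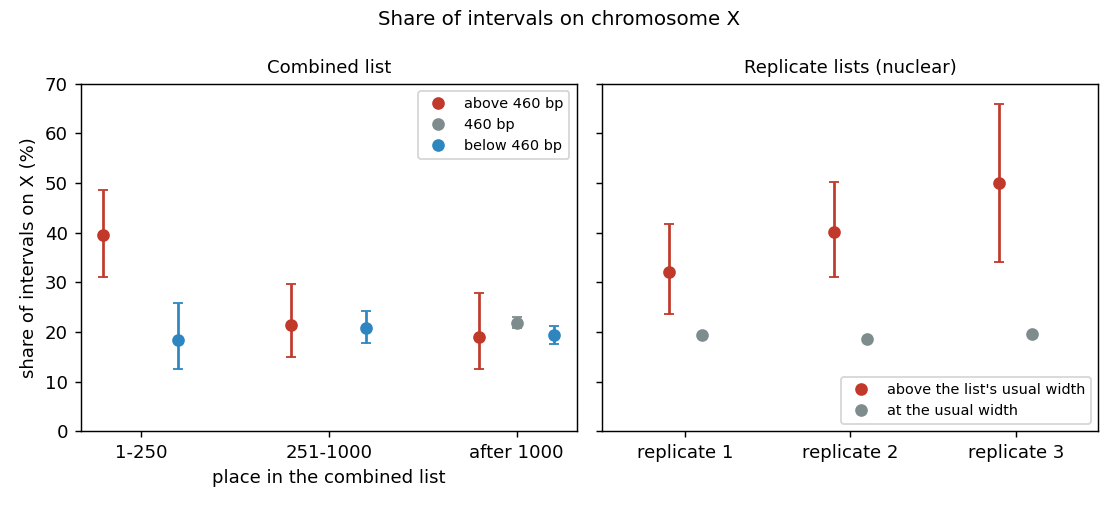
Share in % of intervals on chromosome X, with 95% Wilson intervals as bars except for the grey points at the right. The left panel gives the combined list in steps of the authors' order, with classes of under 20 intervals left out, and the right panel gives the nuclear regions of each replicate list, above (red) or at (grey) the usual width of that list. Red stands at 39.5% in places 1 to 250 and near the other classes after that, and at 32.0% to 50.0% in the replicate lists.

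Over all autosomes, no difference in position along the chromosome was detectable. With each chromosome cut into 3 equal parts, 111 of the 242 autosomal wide intervals, or 45.9%, lay in the central part, against 44.6% of those of 460 bp, and the difference of 1.31 points had an interval from -5.03 to 7.78. Its sign turned with a limit of 600 bp, to -0.599. Single chromosomes gave varied values, and the differences between them were not tested. On I, 43 of 65 wide intervals lay in the central part, or 66.2% (95% Wilson interval 54.04 to 76.5%), against 42.9% of intervals of 460 bp. On II, 27 of 44 lay in the last of the 3 parts, or 61.4% (46.6 to 74.3%), against 34.97%. On V, 16 of 35 lay in the first part, or 45.7% (30.5 to 61.8%), against 29.02%. On IV the first part held 6 of 35, or 17.1% (8.10 to 32.7%), against 35.7%. These were picked from the parts of 6 chromosomes after their values were seen. On III the 3 parts held 16, 26 and 21 wide intervals, and on X they held 31, 29 and 29.

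All replicate lists met nearly every wide interval. The lists of replicates 1 and 2 met 331 of 331 and that of replicate 3 met 330, so that all 3 met 99.7% (95% Wilson interval 98.3 to 99.95%), against 95.1% of the intervals of 460 bp and 98.1% of the narrower ones. The exception was an interval of 464 bp on I at place 6882. Without replicate 3 the difference from the intervals of 460 bp was 1.74 points in place of 4.59, and with all 3 lists it was 1.62 points in the upper 50% of the combined list. How the combined list was made is not stated, so this recovery is no separate evidence for its regions. The median best place at wide intervals was 366, 371 and 375 in replicates 1, 2 and 3, a mean of 371 ± 4.51 (SD, n = 3), against 5904 ± 239 at intervals of 460 bp. All 3 lists had a region within their first 1000 places at 225 of the 331 wide intervals, or 68.0%, and at 17.5% of narrower intervals.

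Wide intervals were more often met by 2 or more distinct regions of the same replicate list. Distinct regions of 1 list met them 2 or more at a time in 48.04%, 52.9% and 58.01% of cases in replicates 1, 2 and 3, with a mean of 53.0% ± 4.99 (SD, n = 3). The mean was 38.5% ± 2.03 for intervals of 460 bp and 28.2% ± 1.41 for narrower ones, and the 3 values of the wide class all lay above those of both other classes. Within each list, the difference from intervals of 460 bp was 9.44, 12.4 and 21.5 points in replicates 1, 2 and 3. A long interval can meet more regions by its length alone, since 1 shared bp was enough. Counted in 200 bp around the midpoint, the mean difference was 11.4 points, against 14.4 points over whole intervals. Counting entries in place of distinct regions, wide intervals that were repeated in the combined list met 2 or more entries of a replicate list in 84.6% ± 3.85 of cases (SD, n = 3), and wide intervals listed once in 56.8% ± 3.65.

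At the same sites the replicate regions were mostly not wide. The best placed replicate region was narrower than the usual width of its own list at 72.5%, 71.6% and 67.9% of wide intervals in replicates 1, 2 and 3. It was wider than usual at 24.2%, 23.9% and 8.48%, and had the usual width at 3.32%, 4.53% and 23.6%, so replicate 3 stood apart in both. The best region was shorter than the combined interval by a median of 191, 189 and 262.5 bp in replicates 1, 2 and 3. The choice of long combined intervals pushes this difference up. Among narrower intervals of the first 1000 places, where the choice pushes it down, the combined interval was still the longer one at 91.0%, 86.1% and 59.2%, by a median over all of them of 78, 74 and 98 bp. Over narrower intervals of all places it went the other way. There the combined interval was the longer one at 44.2%, 38.4% and 21.1%, with median differences of -178, -223 and -199 bp. The choice of short intervals pushes the difference down there too, and intervals of 460 bp were not compared in this way. Whether combined intervals were longer in general is therefore not settled by these values. In the first 1000 places, the best replicate region was narrower than the usual width of its list at 68.4%, 66.2% and 77.9% of wide intervals. For narrower intervals of these places the shares were 91.0%, 86.1% and 58.8%, higher in replicates 1 and 2 and lower in replicate 3.

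No wide interval was covered over its whole length by all 3 lists. Of the bases in wide intervals, 53.1% were covered by all 3 lists, 21.3% by 2, 12.8% by 1 and 12.8% by none, and 300 of the 331 held bases that no replicate list covered. In intervals of 460 bp 76.0% of bases were covered by all 3 lists and 0.210% by none. In narrower intervals the shares were 72.2% and 4.07%. Coverage is a share of the length by which the class was chosen, so it is not independent of the choice. The effect of length on coverage was not tested. The lists of replicates 1, 2 and 3 covered 74.1%, 75.1% and 67.3% of a wide interval on average, a mean of 72.2% ± 4.27 (SD, n = 3). The median length covered by all 3 was 336 bp. In the first 1000 places the lists of replicates 1, 2 and 3 covered 76.0%, 76.9% and 64.0% of a wide interval on average. For narrower intervals of these places the values were 77.2%, 78.6% and 77.0%, so the classes were close in replicates 1 and 2.

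**Figure D5:**
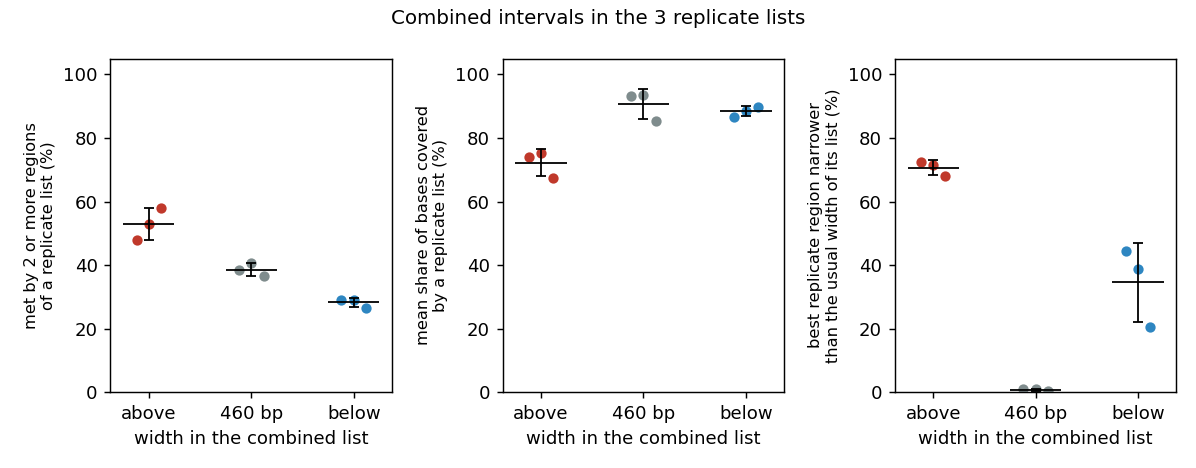
Combined intervals above, at and below 460 bp in the 3 replicate lists, with a point for each replicate, a line for the mean and a bar for the SD (n = 3). The panels give in % the intervals met by 2 or more distinct regions of a list, the mean share of bases covered and the intervals whose best placed replicate region is narrower than the usual width of its list. Over all places, wide intervals are highest in the first and last panels, with means of 53.0% and 70.7%, and lowest in the middle panel at 72.2%. In the first 1000 places, not drawn, the mean of the last panel was 70.9% for wide and 78.6% for narrower intervals.

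Wide regions of the replicate lists pointed back to the same class. Above the usual width of 460, 476 and 444 bp, the lists of replicates 1, 2 and 3 held 100, 97 and 34 distinct nuclear intervals, and every one of them met a wide combined interval. In the other direction, 225 of the 331 wide combined intervals, or 68.0%, met no region above the usual width in any replicate list, 39 met one in 1 list, 38 in 2 lists and 29 in all 3. The 29 ranged from 644 to 2561 bp with a median of 830 bp and stood at a median place of 74, and 22 of them were repeated. Those with none ranged from 461 to 1189 bp with a median of 513 bp and a median place of 615. As the combined list is named for the same experiment, this match is no separate evidence for either.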

How the data were processed

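Binding regions of HAM-1::GFP from 3 ChIP replicates and 1 combined list were used as deposited. Per the file headers, coordinates are on WormBase build WS220, and per the labels inside the deposited files, regions were called with SPP, a peak caller, and passed through IDR, which compares ranks between replicates. The sources used here do not give the aligner, versions, thresholds or way of combining. The score deposited by the authors has no stated unit and is tied at its highest value, so the number in each region name was taken as the order.

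Python 3.11.15, numpy 2.4.6, pandas 2.3.3, scipy 1.17.1 and matplotlib 3.10.9 were used. Entries with identical coordinates were joined, a choice made after seeing the repeats. Regions met where they shared 1 bp or more. Chromosome length was taken as the last base reached by a region of any list. Mitochondrial regions were left out of the report's comparisons, except where entries or repeats of a whole replicate list were described. The code was tested on simulated lists.

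Named regions are the 6 longest and 6 strongest off chromosome I, and those at the width limit. Members and comparisons were chosen with earlier results of these data known. Alternatives are in the closing section.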

Additional observations from a re-analysis of the deposited data

Results flagged for a closer look

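Mitochondrial regions lay outside most comparisons. The lists of 2 replicates held more of them above the usual width than the 3 that a count of 0 allows. This limit served as a flag and not as a test. The combined list has 8430 entries against 30000, 30000 and 29621, and how it was made is not stated. There were 9 distinct wide mitochondrial intervals in replicate 1, with 23 entries, and 10 in replicate 3, with 10 entries. Replicate 2 had 1, and the combined list had no mitochondrial region. Replicate 1 had the widest, at 1740 bp, followed by replicate 3 with 1175 bp and replicate 2 with 755 bp. Wide intervals made up 9 of 14, 1 of 19 and 10 of 22 distinct mitochondrial intervals in replicates 1, 2 and 3.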

How the results depend on the processing

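Of 50 alternatives run, 34 stayed within the main value's interval or SD, 14 moved beyond it and 2 changed sign; the cause was not tested. Wide entries were 8.97% of the upper 50% of the list and 3.99% of distinct intervals, and 18.0% and 9.8% of the first 1000 places with limits of 500 and 600 bp. The difference in median place from the usual width, -5151.5, became -4729.5 with each entry counted and -2886 by score, and that in best replicate place, -5533, became -3193 in the upper 50%. The difference in neighbours within 1 kb was 45.0 points by entries and 14.3 by midpoints. That in recovery by all lists was 1.62 points in the upper 50%, 9.68 with 50% overlap and 1.74 to 3.94 with a replicate left out (lowest without replicate 3). That in being met 2 or more times was 25.1 points with 50% overlap, 32.6 by entries and 10.9 to 16.9 with a replicate left out. The best replicate place was -5609 to -5398 with a replicate left out. The autosomal centre changed sign above 600 bp (-0.599) and in the upper 50% (-0.0902). Counting entries, joining and midpoint distances were chosen after seeing the data. The score could not define a first 1000, so that alternative gave no value. No paired analysis was possible because ChIP and input share the replicate numbers and input was not used here; differences between width classes were taken within each replicate list. Depth is unknown, so its effect on width could not be examined.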

Other observations

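In each list the usual width was 4 times that of the shortest region, with 115 bp against 460 bp in the combined list and in replicate 1, 119 against 476 bp in replicate 2 and 111 against 444 bp in replicate 3. The share of entries above the usual width was 5.33% in the combined list and 0.55%, 0.493% and 0.209% in replicates 1, 2 and 3. The combined list also held the most wide entries in number, 449 against 165, 148 and 62. Mitochondrial entries were 23, 1 and 10 of those in replicates 1, 2 and 3, and 0 in the combined list.

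Split by width, the share of wide intervals on X was 17.8% at 461 to 500 bp, 33.04% at 501 to 600 bp, 26.8% at 601 to 800 bp, 34.8% at 801 to 1000 bp and 23.8% above that. The 95% Wilson intervals of these shares overlap, the last running from 10.6 to 45.1% with 21 intervals. In windows of 1 Mb, the highest count of wide intervals off chromosome I was 9 of the 44 on II, from 11000001 to 12000000. That window held 20.5% of the wide and 10.3% of all distinct intervals of II.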
